A study of Mus musculus with 41 samples.

Results

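The genes described here are members of the Ras signalling pathway that are altered in human hypodiploid acute lymphoblastic leukaemia, followed through 7 mouse populations on the path to the mature B cell. The genes were Nf1, Nras, Hras, Ptpn11, Braf and Pag1, and their members were every array probe set annotated to one of them alone. Of 45101 probe sets on the array, 22 belonged to 5 of these 6 genes: 3 to Nf1, 3 to Nras, 3 to Ptpn11, 9 to Braf and 4 to Pag1. Hras was not analysed here. All 22 passed the filter on low signals, along with 28459 probe sets of the whole array. Several probe sets of a gene read stretches of the same transcripts and were not counted as replicates.

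The series profiled 41 RNA samples, 1 per Affymetrix array, from C57BL/6 mice with wild-type Pax5 and no treatment. There were 7 arrays each of common lymphoid progenitors (CLP) and of Hardy fractions A and B, and 5 each of fractions C to F. As background, CLPs can still form several lymphoid lineages. The Hardy fractions follow the B lineage, with pre-pro-B cells as A, pro-B to large pre-B cells as B and C, small pre-B cells as D, immature B cells as E and mature B cells as F. The labels give no age, tissue or sorting gate. Whether each array had its own animal is not stated either, so p-values reflect the spread of these samples alone, which may be technical. The question set by the submitters is which genes altered in hypodiploid leukaemia are expressed along the normal path. Precision is limited by the number of arrays.

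Ras proteins are switches at the inner face of the cell membrane that are on when bound to GTP. Receptors turn them on through exchange factors, with help from the phosphatase SHP-2, which Ptpn11 encodes, and active Ras recruits Raf kinases, which start the Mek and Erk kinase cascade. Neurofibromin, encoded by Nf1, turns Ras off by speeding up GTP hydrolysis, while Pag1 encodes a membrane adaptor that brings the kinase Csk to Src family kinases and so restrains signalling above Ras. In B cell precursors the pathway works downstream of the interleukin 7 receptor, the pre-B cell receptor and the B cell receptor.

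Signals are the authors' MAS5 intensities, for which each array had been scaled to the same trimmed mean, and differences are first minus second population on the log2(signal + 32) scale, with standard errors from the fit. That scale understates the change of low signals. A change was called where the limma p-value, adjusted by Benjamini-Hochberg over all 28459 probe sets, was under 0.05. Signals of different probe sets are not comparable as levels. The array medians ranged from 69.1 to 153.1. Fractions A and B stood apart: the median standard deviation of a probe set was 0.82 in A and 0.53 in B on the log2 scale, against 0.27 to 0.35 in the other populations. A arrays 4, 6 and 7 had the lowest correlations with their own population, and the ratio of Gapdh 3' to 5' signal, a sign of RNA length, was 33.8, 8.70 and 16.7 on them against 3.56 to 10.8 outside A. The same ratio for actin was not raised: it was 0.849, 1.26 and 1.12 on these arrays, against 0.980 to 1.35 outside A. In fraction A the summed signal of 4 B lineage markers was 770.6 to 8790, against 7534 to 14373.7 in CLP. The summed signal of 10 natural killer cell markers was 40338.6 to 78062.5 in A, against 1925.5 to 2964.1 in CLP, and the B lineage sum was 15904.5 to 30029.5 on the arrays of B to F. These 2 lists go against the label of fraction A as B cell precursors. Pre-B receptor genes differed between its arrays: the summed signal of Igll1 and Vpreb1 was 57118.2, 22483.4 and 40022.6 on A arrays 4, 6 and 7 and 662.2 to 4483.5 on the other A arrays, against 19242.9 to 24065.8 in CLP. Values of fraction A are given here as those of the arrays labelled A. In sorted bulk samples, fewer cells of a type and less RNA per cell cannot be told apart.

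Across the 7 populations, 13 of the 22 probe sets (59.1%) differed by the moderated F-test, against 73.8% of all probe sets tested. The share lay below the background. By gene these were 4 of 4 probe sets of Pag1, 7 of 9 of Braf, 1 of 3 of Ptpn11, 1 of 3 of Nf1 and 0 of 3 of Nras (limma, unadjusted p under 0.05 also in 0 of 3). The changes that kept their calls under all the settings tried belonged to Pag1, Ptpn11 and Braf.

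**Figure D1:**
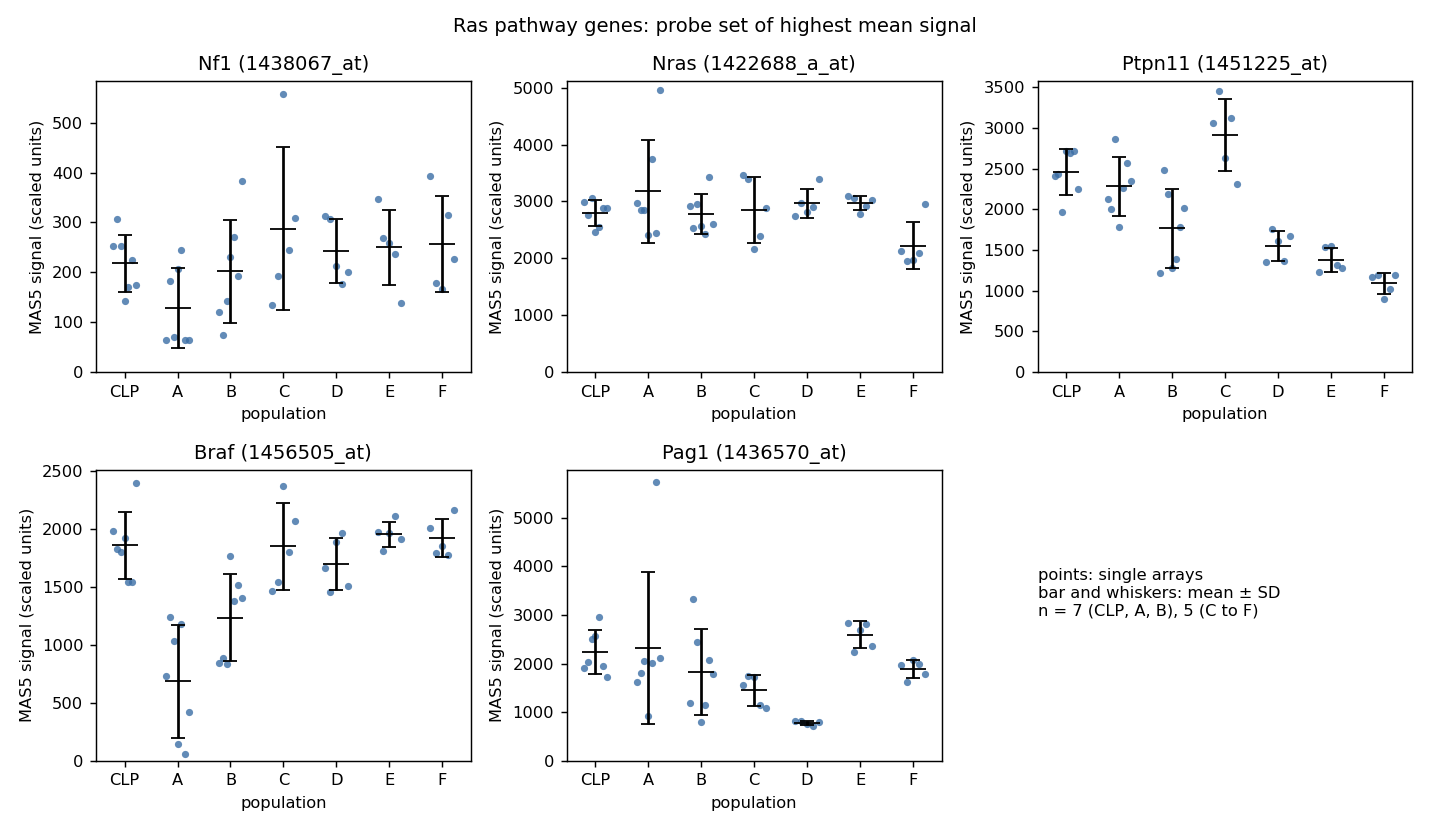
MAS5 signal (linear axis from 0) of the probe set with the highest mean of each gene, by population from CLP to fraction F. Points are arrays, and bars with whiskers are the mean ± SD (n = 7 for CLP, A and B, n = 5 for C to F). Pag1 is lowest in D (713.0 to 824.6), Ptpn11 highest in C and lowest in F, Braf low and scattered in A, Nras and Nf1 without a step that all arrays share.

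Pag1, the adaptor that anchors Csk, was lowest in fraction D and rose again in E on 3 of its 4 probe sets. In its brightest probe set, 1436570_at, the E arrays read 2840.4, 2245.1, 2689.3, 2823.5 and 2357.2, against 809.4, 824.6, 747.3, 713.0 and 795.5 on the D arrays. Every E array was above every D array, and the D arrays lay close together. The difference was 1.69 ± 0.29 on the log2 scale (SE, n = 5 each; limma, adjusted p = 5.24e-05), or 3.23-fold, and it kept its call in all 20 alternatives. Pag1 probe set 1443319_at gave 1.20 ± 0.31 (adjusted p = 0.00786, limma), with means of 253.7 ± 45.2 in E and 94.2 ± 29.9 in D (SD, n = 5 each). Pag1 probe set 1456403_at gave 1.70 ± 0.49 (adjusted p = 0.0224, limma), with means of 230 ± 53.3 in E and 55.2 ± 39.8 in D, and it lost its call without D array 1 or 2 or E array 3 or 4 and with a pseudocount of 1 (2.41, adjusted p = 0.0569, limma). The fourth, 1423002_at, averaged 220 ± 54.4 in E and 183 ± 43.0 in D and was not called (0.23, adjusted p = 0.898, limma). Its lowest mean was in B (123 ± 71.9). On 1443319_at the mean of A (102 ± 44.1) was close to that of D. Of the 22 probe sets, 3 rose in E and these were all Pag1 (13.6%), against 6.41% of all probe sets called in E vs D, 3.09% higher and 3.32% lower. These 3 read the same gene.

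The step before it ran the other way. On 1436570_at the D arrays were all below the C arrays, which read 1551.4, 1738.5, 1721.4, 1145.6 and 1088.4. The difference was -0.85 ± 0.29 (limma, adjusted p = 0.0336), and the call was lost when C array 1, 2 or 3 or D array 1, 3, 4 or 5 was left out (adjusted p up to 0.0844). Pag1 probe set 1443319_at read 130.3, 60.8, 65.7, 109.9 and 104.4 in D, against 382.3, 354.8, 348.5, 198.8 and 346.8 in C. No D array reached a C array, and this difference of -1.51 ± 0.31 (limma, adjusted p = 0.000362) kept its call in all 19 alternatives. With Ptpn11 these were the 3 members that changed in D vs C (13.6%, 0 higher and 3 lower), against 19.2% of all probe sets, 8.87% higher and 10.4% lower. The share was near the background. The other Pag1 probe sets were not called in D vs C: 1456403_at gave -1.08 (adjusted p = 0.116) and 1423002_at -0.48 (adjusted p = 0.304, both limma).

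The early steps of Pag1 depended on the probe set. On 1436570_at the lowest, median and highest signals were 911.4, 2002.4 and 5735.4 in A and 788.7, 1792.2 and 3329.0 in B, against 1717.8, 2028.2 and 2962.9 in CLP. The populations overlapped, and neither difference was called (A vs CLP -0.12, adjusted p = 0.729; B vs CLP -0.41, adjusted p = 0.233; limma). On 1443319_at they were 16.0, 122.0 and 142.2 in A and 40.5, 175.8 and 313.6 in B, against 362.0, 444.9 and 490.7 in CLP. All A and B arrays of that probe set lay below all CLP arrays, with -1.87 ± 0.26 for A vs CLP (adjusted p = 2.82e-07) and -1.25 ± 0.26 for B vs CLP (adjusted p = 0.000286, both limma). Both calls were kept in all 24 alternatives. Pag1 1423002_at also fell in B vs CLP (-0.88 ± 0.27, adjusted p = 0.0129, limma), with means of 123 ± 71.9 in B and 239 ± 47.7 in CLP, and 1456403_at fell in A vs CLP (-1.13 ± 0.41, adjusted p = 0.0297, limma), a call kept in 14 of 24 alternatives. In C vs B, Pag1 1423002_at rose by 1.03 ± 0.29 (adjusted p = 0.00895) and 1443319_at by 0.87 ± 0.28 (adjusted p = 0.0218, both limma), with overlap between arrays. With quantile normalization these 2 rises were 0.60 and 0.48, and with median centring 0.61 and 0.45, and neither was called under either scaling. The fall of 1423002_at in B vs CLP was not called under these scalings either. The order of the Pag1 means on 1436570_at was E, A, CLP, F, B, C and D from high to low, and the ranges of neighbours in this order overlapped except between C and D. Between pairs of the 4 Pag1 probe sets the correlation over the 41 arrays was 0.098 to 0.657, which pools populations and array quality.

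**Figure D2:**
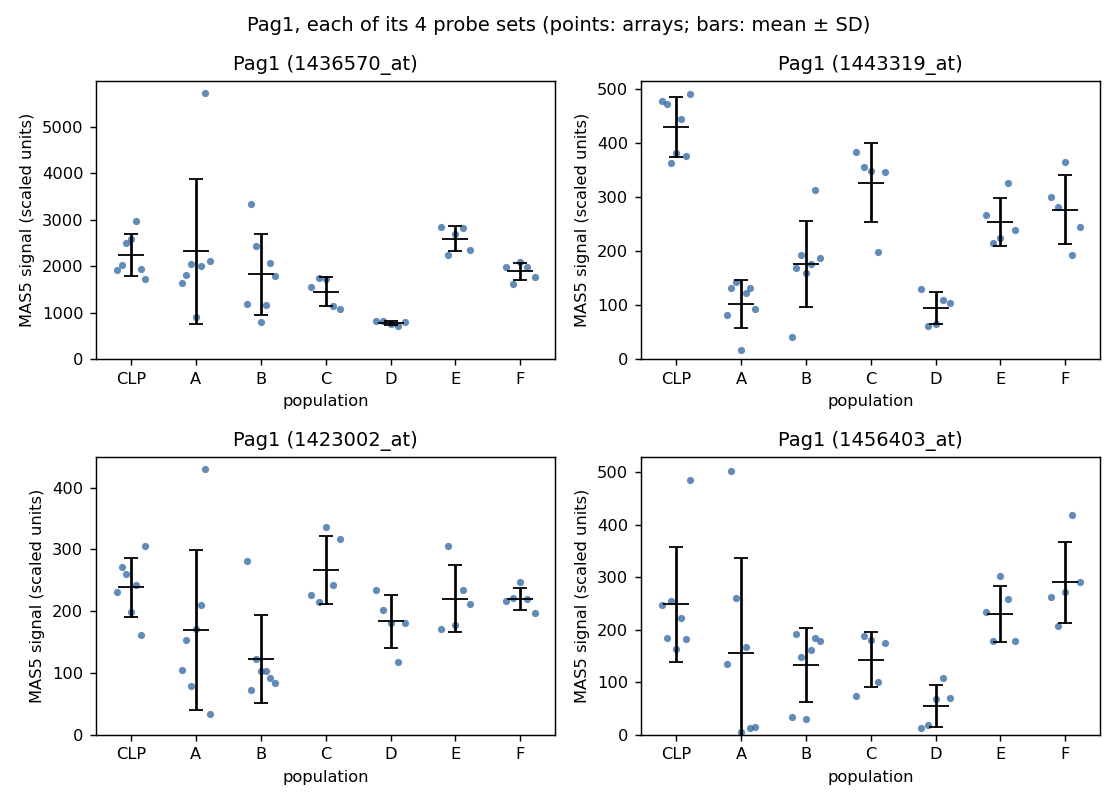
MAS5 signal (linear axis from 0) of the 4 Pag1 probe sets by population, with points for arrays and bars with whiskers for the mean ± SD. D lies below E without overlap in 3 of the 4 panels, and the fourth, 1423002_at, averages 183 in D and 220 in E.

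The C to E steps are also where markers of other cell types and stages moved. In D vs C, 9 of 10 natural killer, 6 of 8 myeloid and 4 of 7 plasmacytoid dendritic markers fell, and the summed myeloid signal was 15428.1 to 20860.5 in D, against 48654.8 to 63722.1 in C. Their part in the fall of Pag1 and Ptpn11 was not tested. In E vs D, no natural killer, T, plasmacytoid dendritic, myeloid or erythroid marker was called (limma; at an unadjusted p under 0.05, 1 of 7 plasmacytoid dendritic markers was higher and 0 of the other 25). The stage markers did move in that step: 5 of 5 mature B cell markers rose, 3 of 3 recombinase genes and 2 of 2 pre-B receptor genes fell, and 4 of 5 genes of dividing cells fell. Their part in the rise of Pag1 was not tested. E array 2 stood apart, with a summed myeloid signal of 79847.4 against 10842.6 to 24524.1 on the other E arrays and a summed pre-B receptor signal of 10756.5 against 653.7 to 1827.5. Without it the E vs D difference of Pag1 1436570_at was 1.74 (limma, adjusted p = 0.000102) and that of 1443319_at was 1.25, and both kept their calls.

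Ptpn11 and Nras had promoters on record in RefSeq. They are shown because the brightest Ptpn11 probe set had the most called steps among the 5 brightest probe sets and the brightest Nras probe set had none. The sequences are the 250 bases before the annotated start (GRCm38.p6), and capitals mark 4 motifs searched on both strands: the cAMP response element TGACGTCA, the ETS-type CCGGAAG, the E-box CACGTG and the GC box GGGCGG.
Ptpn11, chr5:121191398-121191647, minus strand: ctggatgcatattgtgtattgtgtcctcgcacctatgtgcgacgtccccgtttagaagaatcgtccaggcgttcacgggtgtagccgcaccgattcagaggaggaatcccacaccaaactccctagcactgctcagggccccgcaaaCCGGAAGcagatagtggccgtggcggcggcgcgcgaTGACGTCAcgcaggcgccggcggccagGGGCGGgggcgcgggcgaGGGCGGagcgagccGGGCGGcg
Nras, chr3:103058035-103058284, plus strand: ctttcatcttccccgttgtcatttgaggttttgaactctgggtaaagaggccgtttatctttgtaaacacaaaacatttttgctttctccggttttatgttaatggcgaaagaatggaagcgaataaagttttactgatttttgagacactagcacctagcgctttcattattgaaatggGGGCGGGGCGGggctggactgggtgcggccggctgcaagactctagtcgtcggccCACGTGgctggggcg
The Ptpn11 window held 1 TGACGTCA, 1 CCGGAAG and 3 GGGCGG. The Nras window held 1 CACGTG and 2 GGGCGG, and none of the 4 motifs contains another. Of 32851 promoter windows of that length, 1.55% held TGACGTCA, 6.91% CCGGAAG, 6.02% CACGTG and 32.7% GGGCGG. These are letter matches only. Of the 5 genes analysed, Nf1, Nras, Ptpn11 and Braf were matched in the promoter table by symbol.

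Ptpn11, which encodes the phosphatase SHP-2, was highest in fraction C and lowest in F on its brightest probe set, 1451225_at. The F arrays read 1167.2, 1188.5, 896.8, 1017.8 and 1192.0, against a lowest, median and highest signal of 1962.8, 2432.4 and 2720.8 in CLP. All F arrays were below all CLP arrays, with a difference of -1.15 ± 0.17 on the log2 scale (limma, adjusted p = 3.29e-07), and all 22 alternatives kept the call. Of the 22 members, 2 rose and 1 fell in F vs CLP (13.6%), against 40.2% of all probe sets, 19.9% higher and 20.4% lower. The share lay below the background.

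The fall came after fraction C. Ptpn11 read 1358.5, 1760.5, 1613.4, 1366.3 and 1667.5 in D, against 3060.4, 3449.7, 2631.9, 3119.2 and 2316.8 in C. No D array reached a C array, and the difference of -0.89 ± 0.18 (limma, adjusted p = 0.000324) kept its call in all 20 alternatives. The E arrays read 1227.2, 1531.6, 1546.4, 1317.6 and 1277.5 and overlapped those of D. Each F array was below each E array, but F vs E was not called (-0.33, adjusted p = 0.966, limma).

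Before C the Ptpn11 signal was lower in B, where it ran from 1215.2 through a median of 1787.4 to 2483.7, against 1788.7, 2262.2 and 2869.2 in A. The populations overlapped. B vs A gave -0.40 ± 0.15 (adjusted p = 0.0452), B vs CLP -0.51 ± 0.15 (adjusted p = 0.0109) and C vs B 0.75 ± 0.17 (adjusted p = 0.000815, all limma). These 3 calls depended on settings: B vs A was kept in 12 of 26 alternatives, B vs CLP was -0.08 with every array centred on its median and -0.33 without B arrays 1 and 4, and C vs B was 0.33 with median centring (adjusted p = 0.228). From high to low the means ran C, CLP, A, B, D, E and F, and the ranges of neighbours overlapped except between E and F. The other 2 Ptpn11 probe sets, 1427699_a_at and 1421196_at, were called in none of the 8 comparisons (limma), and their correlations with 1451225_at over the 41 arrays were -0.372 and -0.001. For F vs CLP, 1427699_a_at gave 0.61 (adjusted p = 0.0649, limma), in the opposite direction to 1451225_at. All F arrays of 1427699_a_at (551.2 to 890.7) lay above all its CLP arrays (372.4 to 498.7). The Ptpn11 results above thus rest on 1 of its 3 probe sets.

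Nras, the Ras GTPase itself, had a high signal in every population and no called step. On 1422688_a_at the lowest, median and highest signals were 2455.2, 2887.7 and 3066.3 in CLP, 2407.0, 2855.9 and 4960.0 in A, and 2433.5, 2604.6 and 3429.7 in B. They were 3457.6, 3388.7, 2156.2, 2385.3 and 2891.7 on the C arrays, 2741.6, 2980.9, 2811.6, 2904.8 and 3388.2 on the D arrays, and 3087.6, 3066.4, 2783.1, 2921.9 and 3020.0 on the E arrays. The F arrays read 2124.3, 1959.3, 1976.5, 2096.3 and 2960.6, and 4 of them lay below every E and every CLP array while F array 5 did not. F vs CLP was -0.34 ± 0.15 and missed the threshold (limma, adjusted p = 0.0680), and without F array 5 it was -0.45 (adjusted p = 0.0235). It was also called with quantile normalization, in a fit of these 2 populations alone and with array weights. The means ran A, E, D, C, CLP, B and F from high to low, with overlap between all neighbours. Across the 3 Nras probe sets, 0 comparisons were called of the 8 made (limma), and their correlations with each other were -0.191 to -0.001.

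Nf1, the brake on Ras, had signals close to the middle of the array. On 1438067_at the lowest, median and highest signals were 63.9, 70.4 and 244.4 in A, against 143.1, 225.0 and 307.4 in CLP, and only 3 of 7 A arrays reached their array's median. The ranges overlapped. A vs CLP was -0.76 ± 0.29 (limma, adjusted p = 0.0418) and kept its call in 8 of 24 alternatives. The means in the other populations were 288 ± 164 in C, 242 ± 63.7 in D, 250 ± 74.8 in E, 256 ± 96.4 in F (SD, n = 5 each) and 202 ± 104 in B (SD, n = 7), and no other step was called. From high to low the order was C, F, E, D, CLP, B and A, with overlap between all neighbours. The other 2 Nf1 probe sets had no call, and 1441523_at reached its array's median on 11 of 41 arrays.

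Braf, the Raf kinase that active Ras recruits, was low and scattered in fraction A. On 1456505_at the A arrays ran from 58.2 through a median of 734.9 to 1237.5, against 1541.8, 1824.9 and 2395.1 in CLP. No A array reached a CLP array. The difference was -1.87 ± 0.33 (limma, adjusted p = 2.58e-05) and was called in all 25 alternatives, but its size rested on A arrays 4, 6 and 7, which read 146.9, 58.2 and 418.1. Without these 3 arrays, which also stood apart in quality, it was -0.82. B vs A was 1.25 ± 0.33 (adjusted p = 0.00393, limma), and without A arrays 4, 6 and 7 it was 0.20 (adjusted p = 0.436). It was not called in a fit of A and B alone either.

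After B the brightest Braf probe set was steady. Its mean was 1234 ± 376 in B (SD, n = 7). It was 1850 ± 377 for fraction C, 1696 ± 225 for D, 1955 ± 108 for E and 1921 ± 162 for F (SD, n = 5 each), against 1860 ± 291 in CLP (SD, n = 7). From high to low the order was E, F, CLP, C, D, B and A, with overlap between all neighbours. The 9 Braf probe sets had pairwise correlations of 0.298 to 0.799 over their 36 pairs, with a median of 0.544. The median was 0.37 for Pag1 and lower for the other genes. These values pool populations and array quality. In A vs CLP, 5 of 9 Braf probe sets fell, and 4 of these calls were lost under some alternatives. In all, 8 of 22 members fell and 0 rose in A vs CLP (36.4%; at an unadjusted p under 0.05, 10 differed), against 33.9% of all probe sets called, 9.40% higher and 24.5% lower. The share called, both directions together, was close to the background. The share of falls was above that of all probe sets and the share of rises below it. The count called in both directions depended on settings. It was 4 with quantile normalization, with median centring and without A arrays 4, 6 and 7, and 2 in a fit of A and CLP alone. Without those A arrays the calls included a rise of Braf 1442749_at (0.65). Natural killer markers rose in 9 of 10 and plasmacytoid dendritic markers in 5 of 7 in the same comparison, and their part in these differences was not tested.

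A second Braf probe set, 1442749_at, rose in F vs CLP while the brightest was not called (0.06, adjusted p = 0.918, limma). It read 753.2 to 1353.3 in F with a mean of 1034 ± 239 (SD, n = 5), against 305.0 to 877.3 with a mean of 498 ± 194 in CLP (SD, n = 7). The ranges overlapped in part, and the difference of 1.05 ± 0.34 (limma, adjusted p = 0.0108) kept its call in all 22 alternatives. Its means were 909 ± 77.9 in D and 941 ± 150 in E (SD, n = 5 each). Braf probe set 1435480_at averaged 1161 ± 50.1 in F and 711 ± 177 in CLP, with 0.72 ± 0.29 (adjusted p = 0.0429, limma), and kept its call in 10 of 22 alternatives. Braf 1445786_at rose in C vs B by 1.27 ± 0.30 (adjusted p = 0.00176, limma), with no overlap between arrays, at means of 351 ± 98.8 in C and 129 ± 49.6 in B. With quantile normalization that difference was 0.82 (adjusted p = 0.0547).

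**Figure D3:**
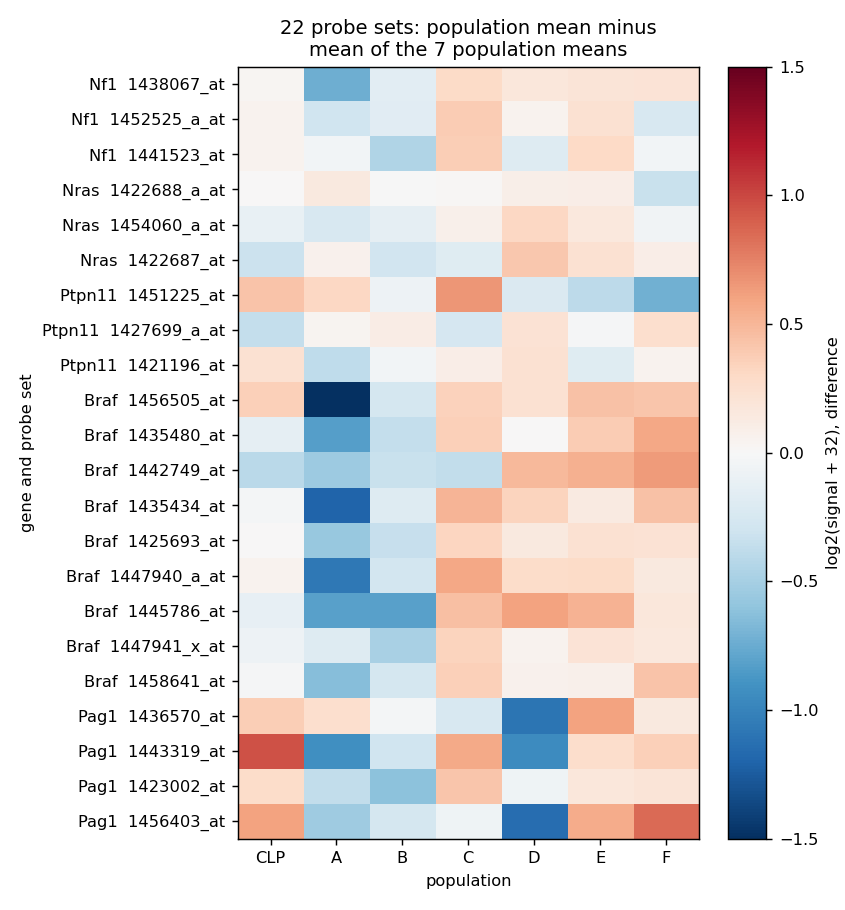
Each cell gives, by colour, the mean log2(signal + 32) of a probe set (22 rows) in a population (7 columns, CLP to F) minus the mean of its 7 population means, red above and blue below. The Braf rows are blue in A and B, the Pag1 rows 1436570_at and 1456403_at are darkest in D, and Ptpn11 1451225_at is reddest in C and bluest in F.

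The remaining comparisons held few calls. In B vs A, 2 members rose and 1 fell (13.6%), against 27.1% of all probe sets, 14.7% higher and 12.4% lower. In B vs CLP, 0 rose and 3 fell (13.6%; at an unadjusted p under 0.05, 5 differed), against 24.1% of all, 6.86% higher and 17.2% lower. In C vs B, 4 rose and 0 fell (18.2%; 7 at an unadjusted p under 0.05), against 22.6% of all, 15.8% higher and 6.86% lower. The shares called lay below the background in B vs A and B vs CLP. Those of C vs B, for calls and for rises, were near the background, and 2 of its 4 rises were probe sets of Pag1. In C vs B the count was 7 without B array 4, 11 with array weights and 1 with quantile normalization. In C vs B, 7 of 10 natural killer, 6 of 8 myeloid and 4 of 7 plasmacytoid dendritic markers rose as well, and their part was not tested. In F vs E, 0 of 22 members were called by limma (1 at an unadjusted p under 0.05, and 2 in a fit of E and F alone), against 0.337% of all probe sets, 0.207% higher and 0.130% lower. The median difference over the 22 members was -0.59 in A vs CLP, 0.62 in C vs B and 0.14 in F vs CLP, beside -0.25, 0.25 and 0.03 over all probe sets.

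The other genes of the pathway were taken as lists written from general knowledge, each gene read by its brightest probe set. The background for these lists was all 11951 tested genes of the array, read the same way. In F vs CLP, 15.1% of these background genes rose and 26.6% fell, with a median of -0.15. Of 14 tested activators and adaptors, 6 rose and 3 fell. Rasgrp3 and Rasgrp1, exchange factors that load Ras with GTP in response to diacylglycerol, rose most. Rasgrp3 averaged 3723 ± 436 in F and 377 ± 248 in CLP, a difference of 3.54 ± 0.44 (limma, adjusted p = 1.32e-08), and Rasgrp1 averaged 4869 ± 598 in F and 580 ± 602 in CLP, a difference of 3.42 ± 0.34 (adjusted p = 5.23e-11). Neither gene's F arrays overlapped the CLP arrays. The adaptor Grb2, which carries the exchange factor Sos to receptors, rose by 1.29 ± 0.23, while the docking proteins Gab2 and Gab1 were lower (-2.33 ± 0.34 and -1.01 ± 0.26). Of 8 other Ras GTPase activating proteins, which like Nf1 turn Ras off, 5 fell and 2 rose. Rasa4 (-2.83 ± 0.40), Dab2ip (-1.87 ± 0.30) and Rasal3 (-1.59 ± 0.22) fell most, and Rasa3 (0.79 ± 0.18) and Rasa1 (0.63 ± 0.20) rose. The Rasa4 signal in F was only 19.4 ± 27.9 on average, so that difference depends on the constant added before the log.

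Among 12 inhibitors of the pathway in F vs CLP, 5 fell and 2 rose. Spred2, Spred1 and Spry2, which block the path from receptors to Raf, were lower (-1.92 ± 0.28, -1.63 ± 0.51 and -1.43 ± 0.30), and the Erk phosphatase Dusp6 was higher (0.72 ± 0.22), as was Rassf5, a Ras-binding protein (0.69 ± 0.20). Of 6 Raf and Mek kinases and scaffolds, 2 rose and 2 fell: the kinase Map2k1 was higher (1.27 ± 0.25), and its relative Map2k2 was lower (-1.38 ± 0.33). Of 6 tested Ras relatives, 2 rose, Rap1b by 0.79 ± 0.16 and Rap1a by 0.43 ± 0.15, the second call being lost without F array 3 or 4 and with median centring (limma, adjusted p = 0.0850). Of 10 Erk target genes, 3 rose and 2 fell, and these counts include Dusp6 and Spry2, which are on the inhibitor list too. Of 6 Src family kinases and their regulators, which Pag1 acts on through Csk, Blk and Ptprc rose (1.90 ± 0.33 and 1.41 ± 0.14) and Fyn fell by 1.96 on the log2 scale. All mature B cell markers (5 of 5) rose in the same comparison, and 6 of 10 natural killer, 5 of 8 myeloid and 5 of 7 plasmacytoid dendritic markers fell. Their part in these differences was not tested.

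**Figure D4:**
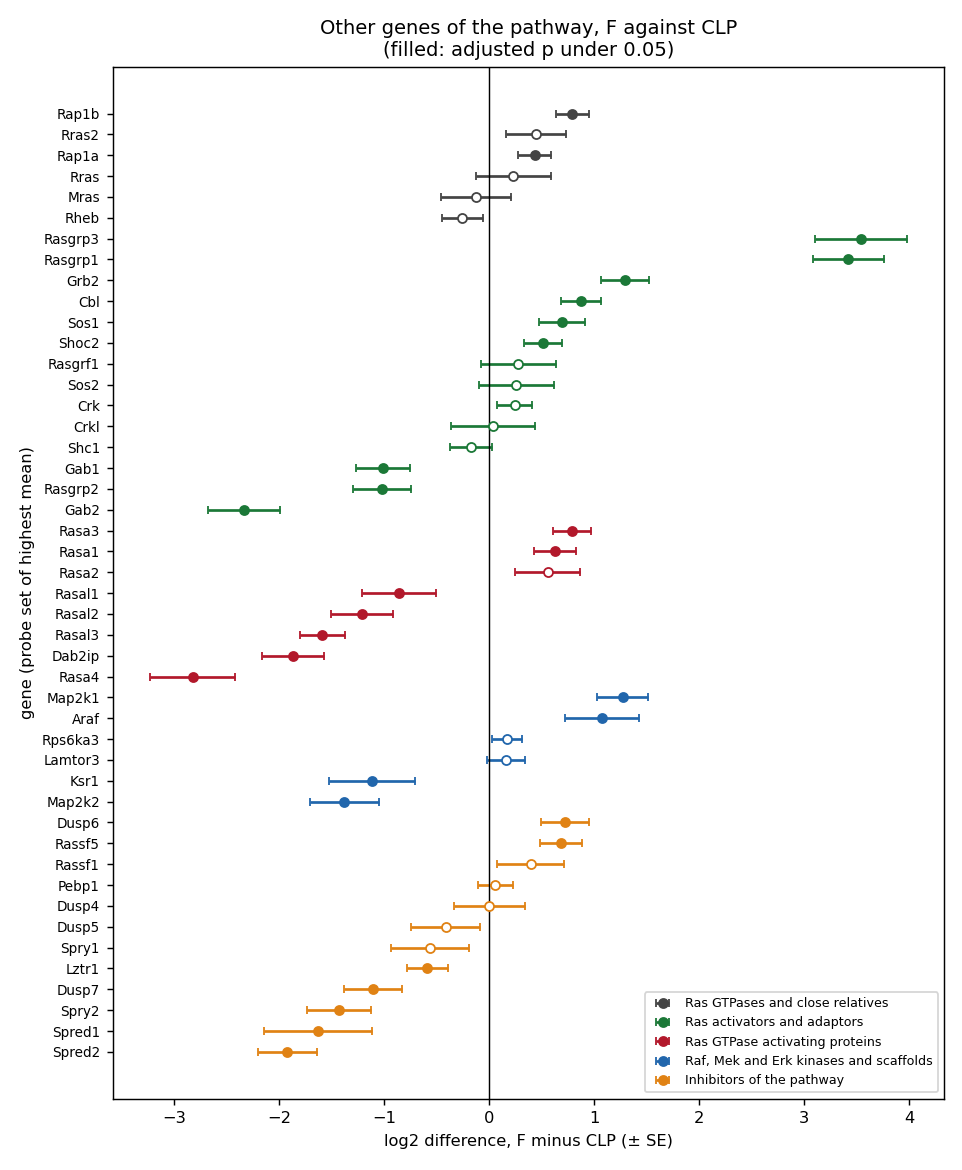
Log2 difference F minus CLP, with standard errors, of the tested genes of the pathway lists, without the lists of Erk targets and of Src family genes. Filled points are called. Rasgrp3 and Rasgrp1 lie farthest to the right (3.54 and 3.42) and Rasa4 farthest to the left (-2.83).

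Around fraction D, where the brightest Pag1 probe set was lowest, the lists moved as follows. The fall of natural killer, myeloid and plasmacytoid dendritic markers in D vs C given above (9 of 10, 6 of 8 and 4 of 7) goes with these values too. Its part in them was not tested. In D vs C, 4 of 14 activators and adaptors rose and 1 fell, against 7.2% higher and 13.5% lower among all genes, with Rasgrp1 at 1.52 ± 0.37, the adaptor and ubiquitin ligase Cbl at 0.80 ± 0.21, the scaffold Shoc2 at 0.72 ± 0.19 and Rasgrp2 at -1.56 ± 0.30. Of 8 Ras GTPase activating proteins, 3 fell: Rasa4 (-2.04 ± 0.43), Rasal3 (-1.67 ± 0.23) and Dab2ip (-1.56 ± 0.32). Of 12 inhibitors, 3 rose and 2 fell, with the phosphatases Dusp5 (2.22 ± 0.36) and Dusp6 (1.73 ± 0.24) higher and Spred2 (-1.70 ± 0.31) and Dusp7 (-1.05 ± 0.30) lower. The Erk target Fos rose by 3.42 ± 0.58, to 7182 ± 828.9 in D, against 709 ± 419 in C (SD, n = 5 each). In all, 2 of 10 Erk targets rose, Fos and the same Dusp6 that is counted among the inhibitors. Of 6 Src family genes, Yes1 (2.45 ± 0.44) and Ptprc (0.72 ± 0.15) rose and Fgr (-2.11 ± 0.38) and Fyn (-1.57 ± 0.19) fell. The signals of Yes1 in C and of Rasa4 and Fgr in D were so low that these sizes depend on the constant added before the log. Over the alternatives they ran from 1.34 to 3.87 for Yes1 and from -3.72 to -0.98 for Rasa4. For Fgr they ran from -2.65 to -1.37. All alternatives kept these calls. Map2k2 was the 1 Raf and Mek list gene of 6 to change (-1.40 ± 0.36). Several of these genes had moved the opposite way in C vs B, without overlap between arrays. Fos (-2.95 ± 0.53, from 5889 ± 3041 in B), Dusp5 (-1.52 ± 0.33), Dusp6 (-0.94 ± 0.22) and Yes1 (-1.77 ± 0.41) were lower in C. Dab2ip (1.36 ± 0.30) and Fgr (1.71 ± 0.35) were higher in C. For these genes C stood apart from both B and D. The C vs B values of the other genes named here are not given.

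In E vs D, 3.66% of all genes rose and 4.02% fell. Of 10 Erk targets, 2 rose and 2 fell: Etv5 at 2.33 ± 0.46 and Egr1 at 2.14 ± 0.51, against Spry2 at -1.77 ± 0.33 and Epha2, whose call held in 8 of 19 alternatives. Egr1 averaged 9039 ± 848 in E and 2103 ± 645 in D (SD, n = 5 each). Of 6 Src family genes, 2 rose together with Pag1, the kinase Fgr (1.62 ± 0.38) and the phosphatase Ptprc, known as CD45, which activates Src family kinases (0.61 ± 0.15). The Fgr signal in D was low (63.3 ± 34.9), so its size depends on the constant added before the log. It ran from 1.00 to 2.10 over the alternatives, all of which kept the call. Of 14 activators and adaptors, Gab1 fell by 1.08 on the log2 scale and no other was called. Rasgrp1 and Rasgrp3 had differences of 1.12 (adjusted p = 0.0576) and 1.37 (adjusted p = 0.0789, both limma), with every E array above every D array. Rap1b (0.63 ± 0.17, of 6 Ras relatives) and Rasa3 (0.68 ± 0.20, of 8 GTPase activating proteins) rose. Both calls were lost without D array 1 and with median centring. That of Rasa3 was also lost without D array 3 or 4 or E array 1 or 5, and it was kept in 14 of 20 alternatives (limma, adjusted p up to 0.127). Of 12 inhibitors, Spry2 was the 1 called, the same gene as on the Erk target list. In F vs E, 1 pathway gene passed, Spred2 at -1.30 ± 0.31, and its call held in 6 of 20 alternatives.

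In the early steps fraction A was on one side of most comparisons. In A vs CLP, 5 of 14 activators rose and 3 fell, and 4 of 10 Erk targets rose and 4 fell, against 11.4% higher and 25.1% lower among all genes. Ccnd1, the cyclin D1 gene and an Erk target, averaged 4647 ± 2576 in A and 598 ± 175 in CLP (2.80 ± 0.24, limma, adjusted p = 1.98e-12). In B vs A the difference was -3.00 ± 0.24 for Ccnd1 and -2.62 ± 0.28 for Spry2, and both were called (limma). The natural killer, plasmacytoid dendritic and B lineage markers moved in both comparisons, and their part was not tested. In B vs CLP, 4 of 8 GTPase activating proteins fell and 0 rose (unadjusted p under 0.05 also 4 and 0), against 8.50% higher and 18.5% lower among all genes, Rasal3 by -1.53 ± 0.20 and Rasa4 by -1.73 ± 0.37. Markers of other cells fell in the same comparison, 7 of 8 myeloid, 5 of 7 plasmacytoid dendritic, 3 of 5 T and 4 of 10 natural killer markers, and their part in it was not tested.

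As a description, the genes whose signal over the 41 arrays was most like the brightest probe set of each member, among 11950 genes, were as follows. Braf was most like Sdc4, Ireb2 and Masp2 (Pearson r 0.91, 0.90 and 0.89), and Ptpn11 most like F13a1, Prkch and Ap3s1 (0.85, 0.84 and 0.84). Pag1 was most like Zadh2, Gimap5 and Ebi3 (0.74, 0.71 and 0.70), Nf1 most like Mllt10, Rwdd1 and Hars2 (0.69, 0.67 and 0.66), and Nras most like Senp6, Med17 and Hes6 (0.60, 0.60 and 0.58). The arrays share populations and quality, so these values include both. Between the 5 members the correlations ran from -0.285, Nf1 with Nras, to 0.563, Nf1 with Braf.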

How the data were processed

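RNA from flow-sorted cells was extracted with PicoPure, amplified with the Ovation Pico system and biotin labelled, per the labels' protocols. The deposited values are linear MAS5 signal intensities, per the submitters' processing notes (no version stated). The authors had scaled every array to a mean of 500 after trimming 2% at each end. The sources used here give no genome build. Populations were read from sample titles. Probe sets were named from the platform annotation: 34958 had 1 symbol, 932 several, and 9211 were not listed. Of 45101 probe sets, 64 controls were removed, and 28459 at or above the median of the array on 5 or more arrays were tested as log2(signal + 32) with limma 3.58.1 in R 4.3.3 (7 group means, 8 comparisons, eBayes with trend and robust variance, Benjamini-Hochberg adjustment over all probe sets tested, threshold 0.05). No further normalization was applied. The method was tested on simulated data. No pair of arrays was identical. Members, gene lists and tests were chosen with earlier results of these data known. Genes named from a list are at most 3 per direction, those with the largest called difference and no overlap between arrays. Alternatives were other pseudocounts (1, and 4 times that used), filters (none, 75th percentile) and scalings (quantile, median centring), a fit of the 2 populations compared, array weights, the replicate number as a block, and each array left out. Leaving out A arrays 4, 6 and 7, or B arrays 1 and 4, was chosen after seeing the data. Promoter sequences are from RefSeq (GRCm38.p6).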

Additional observations from a re-analysis of the deposited data

Results flagged for a closer look

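Of 35 ranges of a member within a population, 2 held an array far from the others, and chance alone gives about 1 in 20 such ranges. For Nras in fraction F, array 5 read 2960.6 while the nearest other F array read 2124.3 and the lowest 1959.3. For Pag1 in fraction A, array 6 read 5735.4, with the nearest other A array at 2116.6 and the lowest at 911.4.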

How the results depend on the processing

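Counts of members called moved by over 1.5 times under these settings, and the cause was not tested unless the setting itself tests fewer probe sets or arrays. For A vs CLP (8 called) the count was 4 with a pseudocount 4 times as large, with no filter, with quantile normalization, with median centring and without A arrays 4, 6 and 7, 3 with the 75th percentile filter and with array weights, and 2 in a fit of these populations alone. For B vs A (3) it was 5 with median centring, 0 in the fit of A and B alone, 0 with array weights, and 1 without A arrays 4, 6 and 7. For B vs CLP (3) it was 1 with the 75th percentile filter, 5 in the fit of both populations alone and 6 with array weights. For C vs B (4) it was 1 with the 75th percentile filter and with quantile normalization, 2 with median centring and 11 with array weights. For D vs C (3) it was 8 in the fit of C and D alone and with array weights. For E vs D (3) the 75th percentile filter left 1. For F vs E (0) it was 2 in the fit of E and F alone and 1 with array weights. For F vs CLP (3) it was 5 with quantile normalization, 7 in the fit of both populations alone and 6 with array weights. Across all populations (13) the 75th percentile filter left 7. Leaving out 1 array gave 4 to 10 for A vs CLP, 1 to 4 for B vs A, 3 to 4 for B vs CLP, 3 to 7 for C vs B, 2 to 3 for D vs C, E vs D and F vs CLP, 0 for F vs E, and 11 to 14 across populations. The count of A vs CLP moved most without CLP array 2 or 3 or A array 4 (4 each) and without CLP array 5 or 7 or A array 7 (5 each), that of B vs A without A array 6 or 7 (1 each) and that of C vs B without B array 4 (7). Among values called under the setting reported or under the alternative, these changed sign: Pebp1 with quantile normalization (A vs CLP -0.31, B vs CLP -0.17, C vs B 0.0092), Pag1 1456403_at in A vs CLP with array weights (0.0155) and without A arrays 4, 6 and 7 (0.0094), and Braf 1442749_at (0.65) and Braf 1447940_a_at (0.23) in A vs CLP without the same arrays. Scaling moved the median of all probe sets: for A vs CLP it was -0.25, against -0.02 with median centring, and the calls were 2674 higher and 6978 lower, against 4094 and 4012. For B vs A the calls were 4187 and 3529, against 6523 and 2356, for B vs CLP 1952 and 4897, against 5129 and 1747, and for C vs B 4489 and 1953, against 1368 and 4345. The deviations of same-numbered arrays of different populations were weakly correlated (-0.213 to 0.207), and 18 of 46 correlations were below 0. Those of E vs D (0.057 to 0.131) and F vs E (0.056 to 0.121) were all positive. Weak correlations cannot settle whether the numbers pair the samples, which the labels do not state. With the replicate block the counts were 8, 3, 4, 4, 3, 3, 0 and 3 in the 8 comparisons as ordered from A vs CLP to F vs CLP, and 11 across populations.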
